A study of Mus musculus with 6 samples.

Results

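The genes described here belong to interleukin 6 (IL-6) and interleukin 1 (IL-1) signalling, read in the livers of mice that lack S1P lyase. They comprise receptors, the transcription factor of the IL-6 side, inhibitors and a known cytokine target, Steap4. They are Il6ra, Il6st, Osmr, Lifr, Stat3, Socs3, Steap4, Il1r1, Il1rap and Il1rn. All probe sets whose platform annotation gave exactly 1 symbol equal to one of these 10 genes were taken, 31 of the 45101 probe sets on the array. Of these, 27 were bright enough to be tested (a mean over all arrays of at least 3.58 log2), and each of the 10 genes had at least 1 of them.

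Affymetrix arrays, 1 per animal, were run on livers from 3 mice without S1P lyase (knockouts) and 3 wild-type animals (WT), and the number of arrays limits the precision of every value. S1P lyase, encoded by Sgpl1, irreversibly cleaves the signalling lipid sphingosine 1-phosphate. Both groups came from a mixed C57BL6 and 129sv background and received no treatment. The sources used here give neither the construction of the knockout allele nor the animals' age, sex or litter. The question of the comparison is how the loss of the enzyme changes liver transcripts.

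IL-6 binds its receptor, Il6ra, which carries no signalling domain of its own, and the pair engages gp130, the product of Il6st. Gp130 also pairs with the receptors for oncostatin M (Osmr) and leukemia inhibitory factor (Lifr), and its JAK kinases phosphorylate STAT3, which switches on acute phase genes in hepatocytes and its own inhibitor, Socs3. IL-1 acts through Il1r1 and its co-receptor Il1rap on the NF-kappaB pathway, and Il1rn encodes the antagonist that occupies Il1r1 without signalling. Steap4, a membrane metalloreductase, is a known target of inflammatory cytokines including IL-6 and TNF.

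Promoter sequences of all 10 genes were matched by symbol in RefSeq (GRCm38.p6), as 14 windows of the 250 bases before an annotated start. Each was searched on both strands for TTCNNNGAA, a form of the site that STAT proteins prefer, for GGG and TTTCC with 2 bases of any kind between them, a form of the NF-kappaB site, and for TTGCNNAA, a form of the C/EBP site. Over all 32851 windows of this length, 7.02% held the STAT form, 1.41% the NF-kappaB form and 9.56% the C/EBP form. The Steap4 window held all 3, without overlap. Counted whether or not the sites overlap, 5 of the 32851 windows held all 3, this one included. The letters were settled after other spellings had been searched, so these shares do not measure how unusual the Steap4 window is. Socs3 held the STAT form, Il1rn the NF-kappaB form at 1 of its 3 starts, and Il1r1 the C/EBP form at 1 of its 2 starts. The windows of the other 6 genes held none of these letters, which says nothing about the factors themselves. The Steap4, Socs3 and Il1rn windows are shown because these are risen genes with a match, and the capitals mark the matched letters. They lie at chr5:7960222-7960471 on the plus strand (Steap4), chr11:117969367-117969616 on the minus strand (Socs3) and chr2:24345121-24345370 on the plus strand (Il1rn).
Steap4: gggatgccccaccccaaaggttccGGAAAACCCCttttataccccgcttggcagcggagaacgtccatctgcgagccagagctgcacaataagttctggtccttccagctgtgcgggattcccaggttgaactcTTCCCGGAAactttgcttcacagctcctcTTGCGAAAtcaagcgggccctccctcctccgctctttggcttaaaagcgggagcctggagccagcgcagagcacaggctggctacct
Socs3: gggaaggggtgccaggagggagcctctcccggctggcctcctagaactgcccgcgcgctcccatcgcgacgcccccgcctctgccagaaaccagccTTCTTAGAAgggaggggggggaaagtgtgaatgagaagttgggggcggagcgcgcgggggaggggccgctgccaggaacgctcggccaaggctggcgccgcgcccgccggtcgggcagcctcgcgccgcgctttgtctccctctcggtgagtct
Il1rn: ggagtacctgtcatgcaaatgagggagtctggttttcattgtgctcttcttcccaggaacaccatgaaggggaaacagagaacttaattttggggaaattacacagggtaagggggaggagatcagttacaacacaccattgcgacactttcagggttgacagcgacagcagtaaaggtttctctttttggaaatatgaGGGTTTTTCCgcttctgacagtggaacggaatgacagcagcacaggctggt
In Steap4 the C/EBP form begins 87 bases before the start, the STAT form 116 and the NF-kappaB form 226. The Socs3 match begins 154 bases before the start and the Il1rn match 51.

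Sgpl1, the targeted gene, checks the labels: its brighter probe set read 2.46, 2.99 and 2.87 log2 in the knockouts and 6.65, 6.90 and 6.71 in WT. Hepatocyte markers were bright in every array, with a summed linear signal of 99480 to 105164 in knockout and 108171 to 112052 in WT over 9 tested genes, 1 of which, Ttr, fell and 8 of which did not pass. The arrays also differed technically with genotype. The 3' minus 5' signal of Actb was 1.12 to 1.45 log2 in knockout and 0.81 to 0.97 in WT, and the poly-A control RNAs added before labelling averaged 8.52 to 9.07 against 7.99 to 8.08 (exact permutation test, two-sided, p = 0.1 for each, the smallest that 3 against 3 allow).

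With the brightest probe set standing for each gene, 6 of the 10 rose in the knockout livers, 1 fell and 3 did not pass on the deposited scale, against 4 that rose and 2 that fell when arrays were centred on poly-A controls. "Rose" and "fell" are used where the limma p, adjusted by Benjamini-Hochberg over all 13370 genes tested, lay under 0.05. Among all genes tested 10.5% rose and 8.09% fell on the deposited scale, 18.6% in all. With arrays centred on poly-A controls, 377 of the 13370 rose and 10120 fell. The limma SEs of the 10 genes were nearly equal on that scale (0.24 to 0.25), so its calls do not measure each gene's own spread between animals. Osmr, Socs3 and Steap4 rose more than 4-fold, Il1rn, Stat3 and Il6st by 1.68-fold to 2.21-fold, and Il1rap fell. The median difference of the 10 genes was 1.10 log2, against -0.05 over all genes tested. At the level of probe sets, 15 of the 27 tested rose, 2 fell and 10 did not pass, where 10.1% of all 27022 probe sets tested rose and 7.82% fell (17.9% in all). All knockouts lay above all WT animals in 16 of the 27 and below in 4, against 18.8% and 21.2% of all probe sets tested.

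**Figure D1:**
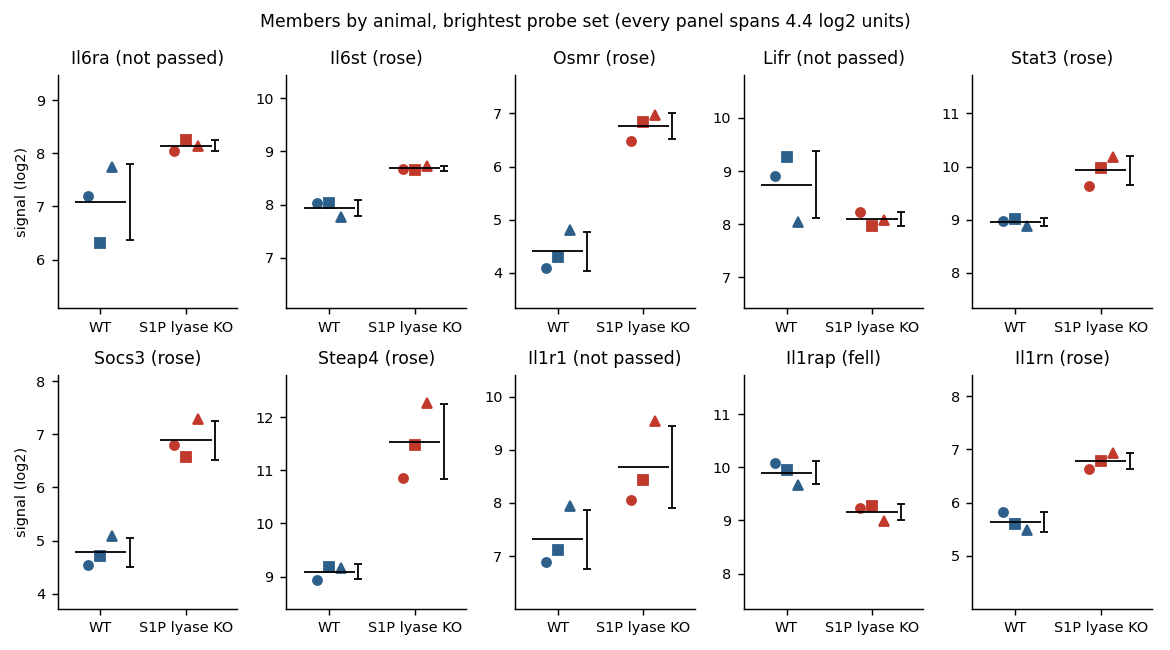
Signal of each gene's brightest probe set (log2, vertical axis) in each of 3 WT (blue) and 3 S1P lyase knockout (red) livers, with circle, square and triangle for animals 1, 2 and 3 of a group, the mean as a line and the SD (n = 3) as a bar beside it. Steap4, Osmr and Socs3 lie apart by at least 1.48 log2 between the lowest knockout and the highest WT animal, while the Lifr groups overlap.

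Among the receptors of the gp130 family, Il6st and Osmr rose, Il6ra was higher without passing and Lifr was lower without passing. Il6st, the shared signalling chain, read 8.67, 8.65 and 8.74 log2 in the knockouts and 8.03, 8.03 and 7.76 in WT. All knockouts lay above all WT animals, and the rise was 0.75 log2 or 1.68-fold (SE 0.12, limma adjusted p = 0.0046). Among all genes tested, 19% had every knockout above every WT value and 21.8% every knockout below. A second probe set of Il6st, 1437303_at, rose by 0.67 log2 (SE 0.13). The other 2 were dimmer, lay in overlapping groups and did not pass, at -0.13 and -0.39 log2. On the mean of the 4 probe sets the Il6st difference was 0.22 log2 and did not pass (limma adjusted p = 0.26).

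Il6ra, the ligand-binding chain for IL-6, read 8.04, 8.24 and 8.14 log2 in the knockouts and 7.19, 6.32 and 7.74 in WT. The knockouts were close to each other and above all WT animals, which were spread over more than 1 log2. The difference of 1.05 log2 (SE 0.31, 95% confidence interval 0.33 to 1.77) narrowly missed the threshold (limma adjusted p = 0.052), and without WT replicate 3, the highest WT animal, it was 1.38 and passed (limma adjusted p = 0.0108). Without WT replicate 2, the lowest, it was 0.67 (limma adjusted p = 0.056), and on the mean of both probe sets 0.43 (limma adjusted p = 0.175). The other Il6ra probe set, 1422270_a_at, gave -0.19 log2 in overlapping groups (95% confidence interval -0.48 to 0.11). The readings of the 2 probe sets of Il6ra thus had opposite signs, and neither passed.

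Osmr, the signalling partner of gp130 for oncostatin M, had the smallest p of the 10 genes. It read 6.48, 6.84 and 6.96 log2 in the knockouts and 4.101, 4.295 and 4.815 in WT. Every knockout was at least 1.67 log2 above every WT animal. Osmr rose 5.12-fold (2.36 log2, SE 0.21, limma adjusted p = 0.000346). Its other 2 probe sets lay below the level for testing, with means of 2.48 to 3.58 log2 in either group. Knockout and WT animals overlapped at both, with untested differences of 0.03 log2 (1418675_at) and -0.09 log2 (1459217_at). The Osmr rise was thus read at 1 of its 3 probe sets.

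Lifr, the receptor for leukemia inhibitory factor, was lower in the knockouts on all 3 of its probe sets, and how much depended on the probe set. The brightest read 8.24, 7.96 and 8.09 log2 in the knockouts and 8.91, 9.27 and 8.05 in WT, where replicate 3 lay within the knockout range. Its difference of -0.65 log2 (SE 0.28) did not pass (limma adjusted p = 0.142). Probe set 1425107_a_at read 6.87, 6.78 and 6.85 log2 in the knockouts and 8.64, 9.75 and 8.34 in WT. All WT animals were at least 1.47 log2 above all knockouts there, and it fell by 2.08 log2 (SE 0.32, limma adjusted p = 0.00401 over probe sets), or 4.22-fold. The dimmest, 1450207_at, was 0.61 log2 lower and did not pass. Without WT replicate 3 the brightest probe set was at -0.997 log2 and passed (limma adjusted p = 0.00678), and without WT replicate 2 it was at -0.39 (limma adjusted p = 0.336). The mean of the 3 probe sets differed by -1.11 log2 and passed (limma adjusted p = 0.0185), as did the brightest with array quality weights, at -0.84 (limma adjusted p = 0.0454).

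Stat3 and its inhibitor Socs3 both rose. Stat3 read 9.64, 9.97 and 10.19 log2 in the knockouts and 8.98, 9.01 and 8.88 in WT. The WT animals lay within 0.2 log2 of each other, below every knockout. The rise was 1.96-fold (0.97 log2, SE 0.15, limma adjusted p = 0.00407). Probe sets 1460700_at and 1459961_a_at rose by 1.04 and 1.10 log2 (SE 0.12 and 0.15). The fourth, 1424272_at, was dim and differed by 0.08 log2 in overlapping groups (95% confidence interval -0.20 to 0.36).

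Socs3, which binds gp130 and JAK kinases to shut the pathway off, read 6.81, 6.57 and 7.29 log2 in the knockouts and 4.55, 4.71 and 5.08 in WT. Knockouts and WT were separated by 1.48 log2. Socs3 rose 4.31-fold (2.11 log2, SE 0.21, limma adjusted p = 0.000688). This probe set and 1456212_x_at, which rose by 1.28 log2, are of a kind whose probes can match related transcripts. The Socs3 probe set without that mark, 1416576_at, rose by 0.79 log2 (SE 0.13). On the deposited scale all 3 rose, over a range from 1.72-fold to 4.31-fold, and their mean rose by 1.39 log2.

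Steap4 showed the highest rise of the 10 genes as read by the brightest probe sets. It read 10.85, 11.48 and 12.26 log2 in the knockouts and 8.93, 9.18 and 9.16 in WT. The knockouts were spread over more than 1 log2, the WT animals over less than 0.3. The rise was 5.43-fold (2.44 log2, SE 0.31, limma adjusted p = 0.00173). Its second probe set, 1425829_a_at, rose by 1.998 log2 (SE 0.40), with the knockout animals in the same order.

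On the IL-1 side the antagonist rose, the receptor was near the threshold and the co-receptor fell. Il1rn read 6.63, 6.78 and 6.93 log2 in the knockouts and 5.83, 5.60 and 5.48 in WT on its brightest probe set. All knockouts were above all WT animals, and the rise was 2.21-fold (1.14 log2, SE 0.14, limma adjusted p = 0.00149). Probe set 1451798_at of Il1rn read 7.60, 7.74 and 7.66 log2 in the knockouts and 3.94, 4.19 and 3.88 in WT. This was a rise of 12.6-fold (3.66 log2, SE 0.13, limma adjusted p = 7.83e-06 over probe sets), the largest of the 27 tested probe sets, from WT values near the level for testing. The third, 1425663_at, rose by 1.31 log2 (SE 0.25), and the mean of the 3 by 2.04 log2.

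Il1r1, the signalling receptor for IL-1, read 8.06, 8.43 and 9.53 log2 in the knockouts and 6.88, 7.11 and 7.95 in WT. The groups did not overlap, but the lowest knockout was only 0.11 log2 above the highest WT animal. The difference of 1.36 log2 (SE 0.40, 95% confidence interval 0.43 to 2.28) missed the threshold over genes (limma adjusted p = 0.0507) and met it over probe sets (limma adjusted p = 0.0486). The call over probe sets was lost without knockout replicate 2 or 3, without WT replicate 1 or 2 and with no filter on dim probe sets. It stood between 0.93 log2 without knockout replicate 3 and 1.67 without WT replicate 3. The second Il1r1 probe set lay at 2.07 and 2.19 log2, below the level for testing.

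Il1rap, the co-receptor that Il1r1 needs to signal, read 9.23, 9.27 and 8.99 log2 in the knockouts and 10.09, 9.94 and 9.66 in WT. Every knockout lay below every WT animal, by 0.39 log2 or more. Il1rap fell by 0.73 log2 (SE 0.14, limma adjusted p = 0.0108), a level 1.66-fold lower than in WT. Its 3 other tested probe sets were much dimmer and were lower by 0.10 to 0.43 log2 without passing, and 1 more lay below the level for testing, at 2.85 and 2.95 log2. On the mean of the tested probe sets Il1rap was lower by 0.37 log2 and did not pass (difference -0.37, limma adjusted p = 0.069).

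**Figure D2:**
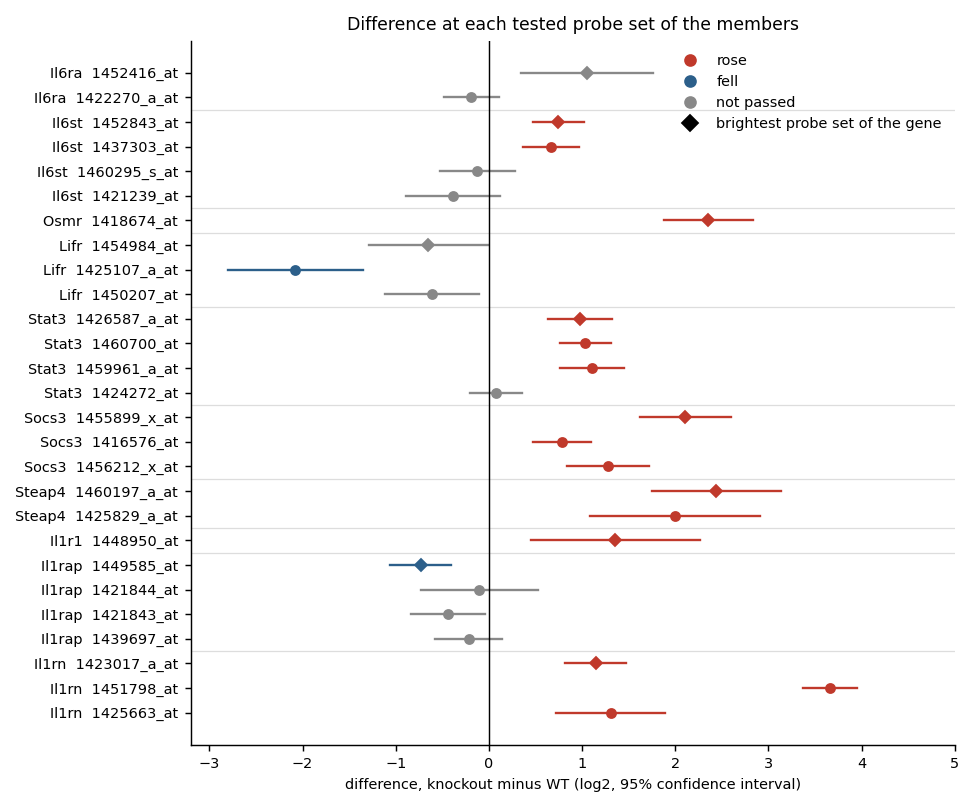
Difference between knockout and WT (log2, horizontal axis) with its 95% confidence interval from limma at each of the 27 tested probe sets, grouped by gene with the brightest on top. On the deposited scale all probe sets of Socs3, Steap4 and Il1rn rose. Il6ra, Il6st and Stat3 each have at least 1 probe set whose interval includes 0, and the differences of all Lifr and Il1rap probe sets are negative. On the poly-A scale 8 of the 27 probe sets rose and 11 fell, against 619 and 20409 of all 27022 tested.

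Probe sets of a gene can match different parts or splice forms of its transcript. Il6ra, Il6st, Lifr, Il1rap and Il1rn are known as background to have membrane-bound and soluble or intracellular forms. The position of the probes was not available from the files used, so a change in one form and the higher 3' to 5' signal of the knockout arrays (Pcx 1.01 log2, Gapdh 0.47, Actb 0.45) cannot be told apart for the probe sets that differ, and their part was not tested.

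The signals of the knockout animals, read on 1 array each, were not equal. Knockout replicate 3 had the highest value of the 3 knockouts in all 6 genes that rose, where it was highest in 24.9% of the 1400 risen genes of the whole array, replicate 2 in 42.4% and replicate 1 in 32.8%. The same animal was highest in 12 of the 15 risen probe sets. Its lead over the knockout mean was 0.05 log2 in Il6st and 0.73 in Steap4. It was likewise highest in 11 of 11 risen genes of a list of plasma proteins that respond to IL-1 and IL-6 together, such as Saa3 and Orm2, and in 7 of 8 of a list that responds to IL-6 alone. Among 11 risen early response factors it was highest in 5, as was replicate 2, and replicate 1 in 1. It was highest in 2 of 11 risen neutrophil markers. Its summed neutrophil signal was 13712, close to the 13938 of replicate 1, with replicate 2 at 15408. Knockout replicate 3 also had the lowest Actb 3' minus 5' value (1.12 log2) and the lowest poly-A control level (8.52) among the knockouts, and the part of these was not tested. This count describes single animals and has no test.

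**Figure D3:**
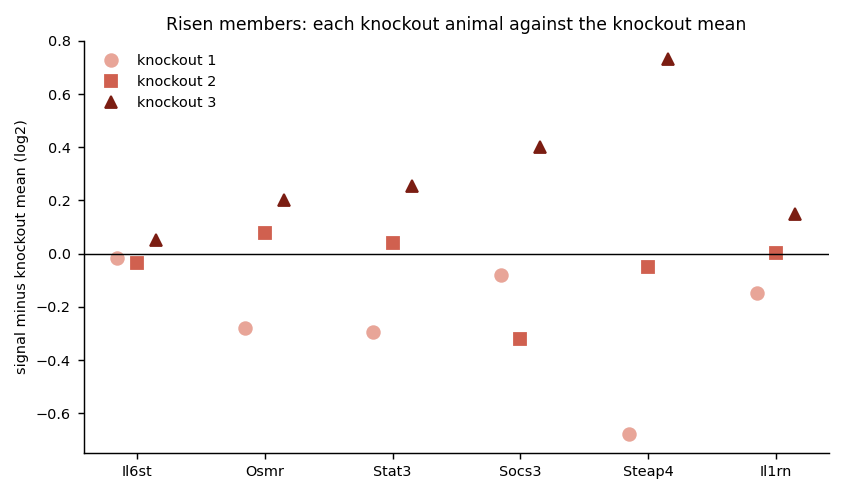
Signal of each knockout animal minus the mean of the 3 knockouts (log2, vertical axis) for the 6 genes that rose. Replicate 3 (triangle) is highest in all 6, from 0.05 log2 above the mean in Il6st to 0.73 in Steap4, and replicate 1 (circle) is lowest in Osmr, Stat3, Steap4 and Il1rn.

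Over the 6 arrays, the genes whose signal was most like that of Steap4 were Eppk1 (Pearson r = 0.9973), Ms4a4c (0.9969), Saa2 (0.9956) and Ifitm1 (0.9945). Those most like Stat3 were Saa2 (0.9987), Sat1 (0.9957), Pros1 (0.994) and Chmp4b (0.9934). Saa2 encodes a serum amyloid A protein, Ifitm1 an interferon-induced membrane protein, Sat1 a polyamine-acetylating enzyme and Pros1 the anticoagulant protein S. These 8 values carry no test, since all points share the 2 genotypes, and r exceeded 0.95 with Steap4 in 211 and with Stat3 in 198 of 13360 genes.

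Of the ligands of these receptors that were tested, Ebi3 was the one that passed. Il6 itself was read below the level for testing, at 2.67 log2 in knockout and 2.29 in WT, and such dim signals carry no measured level. Of 6 tested ligands of the gp130 family 1 rose and 0 fell on the deposited scale, against 0 and 5 on the poly-A scale. Of all 13370 genes tested, 10.5% rose and 8.09% fell on the deposited scale, and 377 rose and 10120 fell on the poly-A scale. Ebi3, a subunit of IL-27 and IL-35, rose by 0.98 log2 (SE 0.17, limma adjusted p = 0.00725), and was at 0.23 without passing on the poly-A scale. Osm, the ligand of Osmr, differed by 0.03 log2, and Lif, the ligand of Lifr, by 0.04. Il11 was at -0.07, the cardiotrophin gene Ctf1 at -0.21 and Clcf1 at -0.36, none of which passed.

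Of the list of IL-1 family ligands and their regulators, 0 of 5 tested genes were called by limma, against 18.6% of all genes tested. An unadjusted p under 0.05 was found for 3 of the 5. On the poly-A scale 2 of the 5 fell, and on the hepatocyte scale 2 rose, Casp1 (limma adjusted p = 0.033) and Il18bp (limma adjusted p = 0.0382). Il1b read 4.71, 4.99 and 5.60 log2 in the knockouts and 4.41, 4.82 and 4.76 in WT. These groups overlap, and the difference was 0.44 log2 (SE 0.23). Without knockout replicate 3 it was 0.19. Il1a was at -0.15 log2, with means of 3.96 in knockout and 4.11 in WT, not far above the level for testing. Il18 was at -0.56, which was -0.35 without WT replicate 2 and passed without WT replicate 3 (-0.73, limma adjusted p = 0.0359) and with array quality weights (-0.73). Casp1, the protease that activates IL-1 beta, was 0.58 log2 higher (limma adjusted p = 0.0505), and passed also with median centring, the 60th percentile filter, the mean of probe sets and without WT replicate 2. Il18bp, which neutralises IL-18, was 1.17 log2 higher (limma adjusted p = 0.0529), and passed also with median centring, without knockout replicate 1 and without WT replicate 2. Il33 was below the level for testing.

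Among other receptors, the leptin receptor Lepr, which belongs to the gp130 class, was the riser in 3 tested genes. It rose by 1.503 log2 (SE 0.22, limma adjusted p = 0.00341), from 5.37 to 5.54 in WT to between 6.46 and 7.41, and by 2.69 on the mean of its probe sets. Il1r2, a decoy receptor that binds IL-1 without signalling, was the riser in 4 tested IL-1 family receptors, by 1.04 log2 (SE 0.22, limma adjusted p = 0.0161), and lost its call without knockout replicate 2 (limma adjusted p = 0.0682). In these lists 0 genes fell on the deposited scale, against 2 of 3 and 3 of 4 on the poly-A scale, where Il1r2 did not pass (0.29 log2). Over the whole array 8.09% of genes fell on the deposited scale and 10120 of 13370 on the poly-A scale.

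In the list of JAK kinases, other STATs and adaptors 1 of 11 tested genes rose, where 10.5% of all genes tested rose. It was Jak2, by 0.40 log2, and this call was lost when any single array was left out. In the list of JAK-STAT inhibitors 5 of 15 rose (median 0.10 log2). Ptpn1, a phosphatase that acts on JAK2 and TYK2, rose by 1.52 log2 (SE 0.12, limma adjusted p = 0.000204), Ptpn2 by 0.61 and Ptpn6 by 0.49, the last losing its call without knockout replicate 1 or 2 or any WT replicate. In the list of IL-1 adaptors and kinases 6 of 18 rose (median 0.25 log2). Irak3, which blocks signalling from the IL-1 receptor, rose (limma adjusted p = 7.24e-05), with all 3 WT animals below the level for testing. It is counted among the 6, though it passed the filter only through the knockouts and its p rests on those dim WT readings. The knockouts read 5.76, 6.18 and 6.22 log2, and their mean lay 2.48 log2 above that level, so the rise is given as at least 5.58-fold. Tab2 rose by 0.96 log2 and the adaptor Myd88 by 1.07. In these lists 0 genes fell on the deposited scale, while on the poly-A scale 6 of the kinases and factors, 9 of the inhibitors and 9 of the IL-1 adaptors and kinases fell, and Ptpn1 still rose, by 0.77 log2. The array as a whole had 10120 of 13370 genes fallen on the poly-A scale. Tab2 (0.21 log2) and Myd88 (0.32) did not pass on that scale.

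Early response factors, which cytokines induce directly, rose in 11 of 16 cases, with a median of 1.06 log2. Cebpd, a factor that acts with STAT3 on acute phase genes, rose by 2.42 log2 (SE 0.18), Klf6 by 1.20 and Cdkn1a, a cell cycle inhibitor, by 2.87. On the mean of probe sets Cebpd rose by 1.39 and Klf6 by 2.01, and Klf6 did not pass on the poly-A scale (0.45 log2, limma adjusted p = 0.0906). Plasma protein genes of the IL-6 type rose in 8 of 13 cases (median 0.66 log2), among them A2m by 4.03 log2 (SE 0.17), Fgl1 by 1.46 and Lrg1 by 2.004. Those of the joint IL-1 and IL-6 type rose in 11 of 13 (median 2.05 log2), led by Orm2 at 7.06 log2, Lcn2 at 5.95 and Saa3 at 5.69. In these lists 0 genes fell on the deposited scale, and 1, 4 and 1 on the poly-A scale, where 5, 4 and 9 rose. The median over all genes tested was -0.05 log2 on the deposited scale. Across all 10 lists of partner genes, 45 of 104 tested genes rose and 0 fell, against 21 and 42 on the poly-A scale. The whole array had 10.5% of genes risen and 8.09% fallen on the deposited scale. After poly-A centring it had 377 risen and 10120 fallen of 13370.

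**Figure D4:**
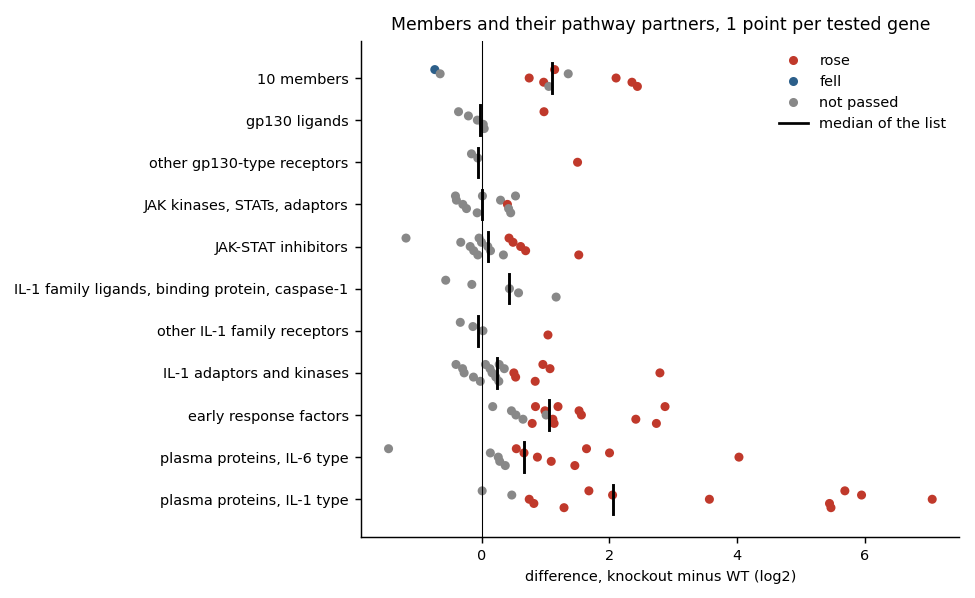
Difference between knockout and WT (log2, horizontal axis) of each tested gene among the 10 described here and in 10 lists of pathway partners, with the list median as a bar. Of the 45 partner genes that rose, 11 are early response factors and 8 and 11 are plasma proteins of the IL-6 and the joint type. The gp130 ligands have a median of -0.02. On the poly-A scale 42 of the 104 tested partner genes fell, as did 10120 of all 13370 genes tested.

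Transcripts of some other cell types also differed between the genotypes. Of 12 tested neutrophil markers 11 rose, and their summed linear signal was 13712 to 15408 in knockout and 592 to 732 in WT. B cell markers rose in 4 of 6 cases (346 to 446 against 130 to 145), and monocyte and macrophage markers in 5 of 11 (4902 to 5297 against 2135 to 3283). Of 7 Kupffer cell markers 2 rose and 5 fell, with sums of 2501 to 2786 in knockout and 1558 to 2524 in WT. Some counted markers passed the filter only through 1 group. WT animals lay below the level for testing at Pou2af1 (2.61 to 3.57 log2) and Itgam (3.14 to 3.36), as did the WT mean of Mmp8 (3.38). Knockouts lay below it at Cd163 (3.15 to 3.33), which counts as fallen. On the poly-A scale 10 neutrophil, 5 monocyte and macrophage, 4 B cell and 1 Kupffer cell markers rose, and 1, 3, 1 and 5 fell. For all genes tested, the shares were 10.5% risen and 8.09% fallen on the deposited scale. The poly-A scale had 377 risen and 10120 fallen of 13370. Endothelial markers summed to 1656 to 1965 in knockout and 1738 to 1814 in WT, and 2 of 9 rose and 1 fell. Stellate cell markers summed to 2901 to 3431 and 3662 to 4083, but 1 of 10 rose, 2 fell and 7 did not pass. T and NK cell markers summed to 163 to 179 in knockout and 150 to 178 in WT, and 1 of 5 rose and 0 fell. Bile duct markers summed to 83.5 to 85.1 and 80.5 to 106, and 0 of 3 passed. On the poly-A scale 1 endothelial marker and 0 of the other 3 lists rose, and 3 endothelial, 9 stellate cell, 4 T and NK cell and 3 bile duct markers fell. Neutrophils and macrophages express Il1rn, Il1r2, Socs3 and Irak3, and the part of these cells in the rises was not tested. In whole liver RNA, fewer cells of a type and less RNA per cell cannot be told apart.

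The scale of the arrays decides the smaller differences. When arrays were centred on their poly-A controls, the median of all genes went from -0.05 to -0.80 log2, and 4 of the 10 genes rose and 2 fell. Of all 13370 genes tested, 377 rose and 10120 fell with that centring. Steap4 (1.69 log2), Osmr (1.61) and Socs3 (1.36) rose on both scales, though Socs3 probe set 1416576_at was at 0.036 and did not pass on the poly-A scale (limma adjusted p = 0.895). Il1r1 passed at 0.61, though its groups overlapped on that scale. There its knockouts read 7.39, 8.08 and 9.42 log2 and its WT animals 7.28, 7.52 and 8.27. The limma SE of Il1r1 was 0.25 on the poly-A scale and 0.40 on the deposited scale. Over the 10 genes it ran from 0.24 (Steap4) to 0.25 (Il1rn) and from 0.12 (Il6st) to 0.40 (Il1r1). Calls on the poly-A scale thus do not measure each gene's own spread between animals. The limma adjusted p of Il1r1 was 0.0201 there and 0.0507 on the deposited scale. These 2 values cannot be compared directly, since the adjustment depends on how many genes pass on a scale. Il1rap and Lifr fell, with differences of -1.48 and -1.40. Stat3 at 0.22, Il1rn at 0.40 and Il6ra at 0.30 stayed higher without passing, and Il6st reversed to -0.0033, values that lie above the median of all genes on that scale. Il1rn still rose at 1451798_at, by 2.91 log2. Centred on hepatocyte markers, 8 rose and 1 fell, with the median of all genes at 0.07 log2, and Il6ra and Il1r1 passed upwards.

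**Figure D5:**
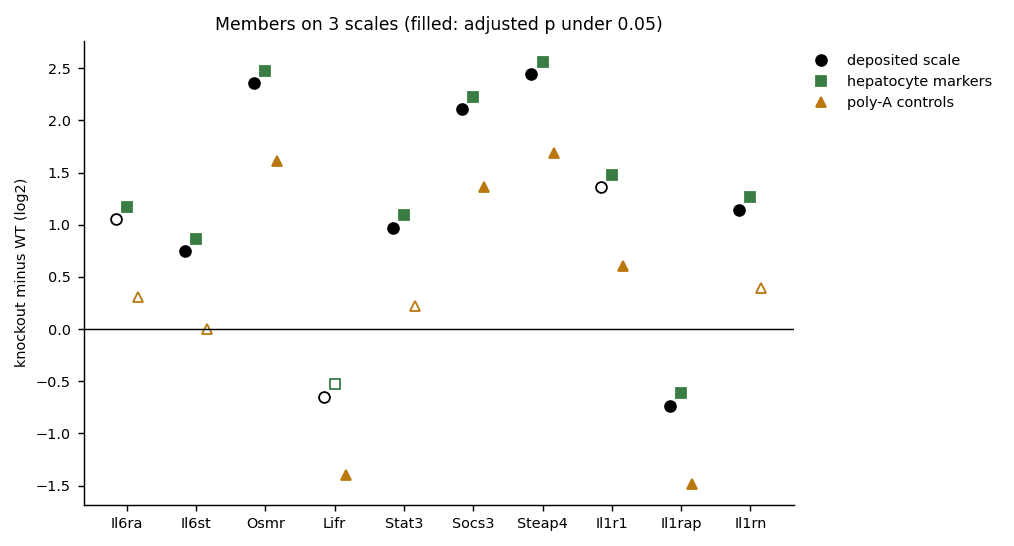
Difference between knockout and WT (log2, vertical axis) of the 10 genes on the deposited scale, after centring on hepatocyte markers and after centring on poly-A controls; filled symbols passed the limma test. Osmr, Socs3 and Steap4 rose and Il1rap fell on all 3 scales, while Il6st went from 0.75 to -0.0033 on the poly-A scale.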

How the data were processed

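The deposited values are log2 signals, 1 per probe set and array, made by the authors. The submitters' processing notes name MAS5, with no version or role, and how signals were normalized and summarized was not stated. The log2 scale was read from the range of the values. RNA was extracted with TRIzol and labelled with biotin, per the labels' protocols. Of 45101 probe sets, 34945 had exactly 1 symbol, 932 several and 9211 none listed. The 64 controls, and probe sets with a mean under the 40th percentile (3.58), were left out, leaving 27022 probe sets and 13370 genes, for which the brightest probe set stood. Genotypes were compared with limma 3.58.1 (R 4.3.3, lmFit and eBayes with intensity trend, two-sided) without further normalization. The fit was tested on simulated data. Folds are powers of 2 of the difference.

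Replicates are separate animals, numbered only to name them. Named are all 10 genes, their ligands, and up to 3 called genes with the smallest adjusted p in each partner list, and the 4 genes most like Steap4 and Stat3. The 10 genes, lists and scalings were chosen with earlier results of these data known. Motif letters were settled after other spellings had been searched, and the shown windows after the matches were seen. Partner lists held 120 genes, 109 with a probe set of 1 symbol.

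Alternatives tried were other filters, quantile and median scaling, centring on poly-A controls or hepatocyte markers, no trend, array weights, averaging the probe sets of a gene and leaving out each array.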

Additional observations from a re-analysis of the deposited data

How the results depend on the processing

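Osmr, Socs3 and Steap4 rose under all 15 alternatives, with differences of 1.61 to 2.56, 1.36 to 2.27 and 1.69 to 2.78 log2. The number of the 10 genes that rose was 4 to 8, and 6 to 8 without single arrays. The number that fell was 2 on the poly-A scale and with array quality weights, and 1 to 2 without single arrays. Of their probe sets, 8 rose and 11 fell on the poly-A scale, 4 fell with array quality weights, and without single arrays 14 to 16 rose and 2 to 3 fell. Partner genes: 21 rose and 42 fell on the poly-A scale, 1 fell with quantile normalization or array quality weights, 4 fell with the mean of probe sets, and without single arrays 36 to 44 rose and 0 to 2 fell. Over all genes, 377 rose and 10120 fell on the poly-A scale, 619 fell on the hepatocyte scale, and without single arrays 792 to 1437 rose and 526 to 944 fell. Over all probe sets, 619 rose and 20409 fell on the poly-A scale, 4183 rose and 1253 fell on the hepatocyte scale, and without single arrays 1472 to 2814 rose and 993 to 1825 fell. On the poly-A scale the sign turned for Il6st (-0.0033, and -0.081 at 1437303_at), Stat3 probe set 1424272_at (-0.67), Casp1 (-0.17), Il1b (-0.31), Jak2 (-0.34), Lif (-0.71), Osm (-0.72), Ptpn2 (-0.14) and Ptpn6 (-0.26). Il1rap probe set 1421844_at turned to 0.0191 on the hepatocyte scale, and lay between -0.3574 and 0.1671 without single arrays, above 0 without knockout replicate 1 or WT replicate 3. Il11 turned to 0.0538 on the hepatocyte scale. Without single arrays Il11 lay between -0.1607 and 0.0089, Lif between -0.0146 and 0.1128 and Osm between -0.035 and 0.1018. Beyond the shift that centring itself makes, the cause was not tested. No paired analysis was possible because the labels give animals no number shared between genotypes.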
